A study of Rattus norvegicus with 6 samples.

Results

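The core circadian clock was examined in the renal cortex of rats, through the 10 genes of its central feedback loops: the activators Bmal1 (also written Arntl), Clock and Npas2, and the repressors Per1, Per2, Per3, Cry1, Cry2, Nr1d1 and Nr1d2. Members were all array probes whose RefSeq accession belongs to one of these genes, which gave 21 of 61537 non-control probes, and all 10 genes were among the 12130 genes tested. The 3 treated animals had received 4-hydroxy-m-phenylenediammonium dichloride, the salt of an easily oxidised aromatic diamine, at 100 mg/kg/day for 4 weeks, and the 3 control animals had received corn oil for 4 weeks. All were male Crl:CD(SD) Sprague-Dawley rats bought at 5 weeks of age, fed a basal diet and kept in alternating light and darkness of equal length, and each animal had 1 one-colour Cy3 array of total RNA. The sources used here give neither the vehicle and route of the compound nor the time of day and order in which the cortex was taken.

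The mammalian clock is a transcriptional loop that runs in nearly every cell. BMAL1 pairs with CLOCK, or with the related protein NPAS2, and switches on genes that carry E-boxes, among them the Per, Cry and Nr1d genes. PER and CRY proteins then hold back the pair that induced them, while NR1D1 and NR1D2 (REV-ERB alpha and beta) repress Bmal1 and Npas2 through a site that they share with the activating ROR receptors. In kidney, as in liver, Bmal1 and Npas2 peak near the opposite time of day to Nr1d1, Dbp and Per3. The time of sampling may therefore bear on the levels given here, which could not be tested. The clock of the kidney times sodium handling, filtration and drug disposal.

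Promoter sequences are shown for the 3 members whose start regions held one of the clock's own elements. Whether these sites are used in this cortex was not tested. Each sequence comes from RefSeq (build GRCr8) and runs from 250 bases before to 50 bases after the annotated start of a transcript, with the match in capitals. Of the members, 9 had at least 1 promoter in this table and 11 promoters were searched on both strands. Nr1d1 carried the E-box CACGTG in 1 of its 2 promoters, chr10:84229405-84229704 on the minus strand. Per2 carried the D-box TTATGTAA, a site of DBP, TEF and NFIL3, at chr9:99496944-99497243 on the minus strand. Bmal1 carried TAGGTCA, the core of the REV-ERB and ROR element, at chr1:176766078-176766377 on the plus strand.
Nr1d1: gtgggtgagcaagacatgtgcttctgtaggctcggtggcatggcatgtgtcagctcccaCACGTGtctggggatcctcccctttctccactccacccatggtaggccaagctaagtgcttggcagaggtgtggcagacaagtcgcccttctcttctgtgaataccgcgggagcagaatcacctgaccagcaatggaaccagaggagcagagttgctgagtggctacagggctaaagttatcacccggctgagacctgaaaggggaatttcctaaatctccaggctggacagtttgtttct
Per2: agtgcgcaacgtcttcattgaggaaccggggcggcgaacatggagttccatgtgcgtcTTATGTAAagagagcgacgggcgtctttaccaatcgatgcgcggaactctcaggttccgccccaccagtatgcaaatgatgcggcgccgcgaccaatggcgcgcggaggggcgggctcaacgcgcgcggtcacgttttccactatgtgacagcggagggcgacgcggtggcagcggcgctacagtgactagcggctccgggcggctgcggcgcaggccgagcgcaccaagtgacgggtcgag
Bmal1: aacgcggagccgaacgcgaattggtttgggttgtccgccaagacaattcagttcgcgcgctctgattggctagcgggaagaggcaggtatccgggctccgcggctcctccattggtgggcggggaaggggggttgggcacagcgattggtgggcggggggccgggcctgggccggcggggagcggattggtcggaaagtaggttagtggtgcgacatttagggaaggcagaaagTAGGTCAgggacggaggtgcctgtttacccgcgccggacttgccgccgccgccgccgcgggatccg
Over all 33469 promoters of the same length, 6.42% held CACGTG, 1.01% held TTATGTAA or TTACGTAA and 2.63% held TAGGTCA. These matches are descriptions of the letters in these windows.

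Levels are log2 of the processed spot signal minus log2 of its 75th percentile on that array, so a level of 0 is the brightness at that percentile. Levels of different probes are not set against each other. On this scale the 10 spike-in control transcripts had a median log2 difference of -0.15 between treated and corn oil animals (range -0.29 to -0.07). The cause of that offset was not tested, and small differences between the groups are to be read beside it. On these arrays 68.9% to 69.6% of probes were well above background in treated animals and 63.1% to 67.7% in corn oil animals. All treated arrays lay on 1 slide and all corn oil arrays on another, in a scan of its own, and slide, scan and treatment therefore cannot be told apart. The cortex carried its defining proximal tubule markers brightly, with all 8 markers tested and a summed signal, in multiples of each array's 75th percentile, of 1116 to 1137 in treated animals and 1121 to 1254 in corn oil animals. Of these 8, 7 had a lower mean in treated animals, and Anpep passed the test (log2 difference -0.65, limma adjusted p = 0.030). The smooth muscle marker Acta2 was higher (0.50, limma adjusted p = 0.039). Red blood cell markers also moved with the groups, though none passed. All 4 tested were higher in every treated animal, with summed signals of 666 to 1023 in treated animals against 435 to 569 in corn oil animals. The part of these markers in the clock values was not tested. In whole cortex, fewer cells of a type and less RNA per cell cannot be told apart.

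Bmal1, the activator that the clock cannot run without, had lower values in all treated animals. Its levels were -0.56, 1.43 and 0.89 in treated animals 1 to 3, against 1.76, 1.73 and 1.60 in corn oil animals. The groups did not overlap. The corn oil animals lay within 0.16 of each other, while the treated animals spread over 1.99, with animal 1 far below the other two. The mean was 2.15-fold lower in treated animals (0.59 ± 1.03 against 1.69 ± 0.09, SD, n = 3 each; log2 difference -1.11, SE 0.50, 95% confidence interval -2.34 to 0.12), which did not pass the test (limma adjusted p = 0.239). Without treated animal 1 the difference was -0.54 (adjusted p = 0.194). The second Bmal1 probe gave almost the same picture, at -2.52, -0.84 and -1.16 in treated animals and -0.36, -0.43 and -0.51 in corn oil animals, a log2 difference of -1.08 (adjusted p = 0.191 in a fit of every kept probe).

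Npas2, the alternative partner of BMAL1, had the same order of treated animals as Bmal1, but not of corn oil animals. Its brightest probe read -0.75, 0.36 and -0.11 in treated animals and 0.97, 0.53 and 0.60 in corn oil animals, again with no overlap. The log2 difference was -0.87 (SE 0.29, 95% confidence interval -1.59 to -0.14, adjusted p = 0.145), or -0.58 without treated animal 1. Its further probes did not all show this. One had a log2 difference of -0.57 (SE 0.26, adjusted p = 0.245) and the other 0.06 (SE 0.11, adjusted p = 0.751), and with the mean of its probes Npas2 had a difference of -0.46. Clock, the usual partner of BMAL1 and a gene that many tissues keep at a fairly steady level, read -1.36, -1.27 and -1.21 in treated animals and -1.31, -1.26 and -1.16 in corn oil animals. Its interval of the difference, -0.21 to 0.14, is the narrowest of the 10 genes. In the fit of every kept probe, the further Clock probes had intervals from -0.36 to 0.36 and from -0.55 to 0.19, with overlapping groups.

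**Figure D1:**
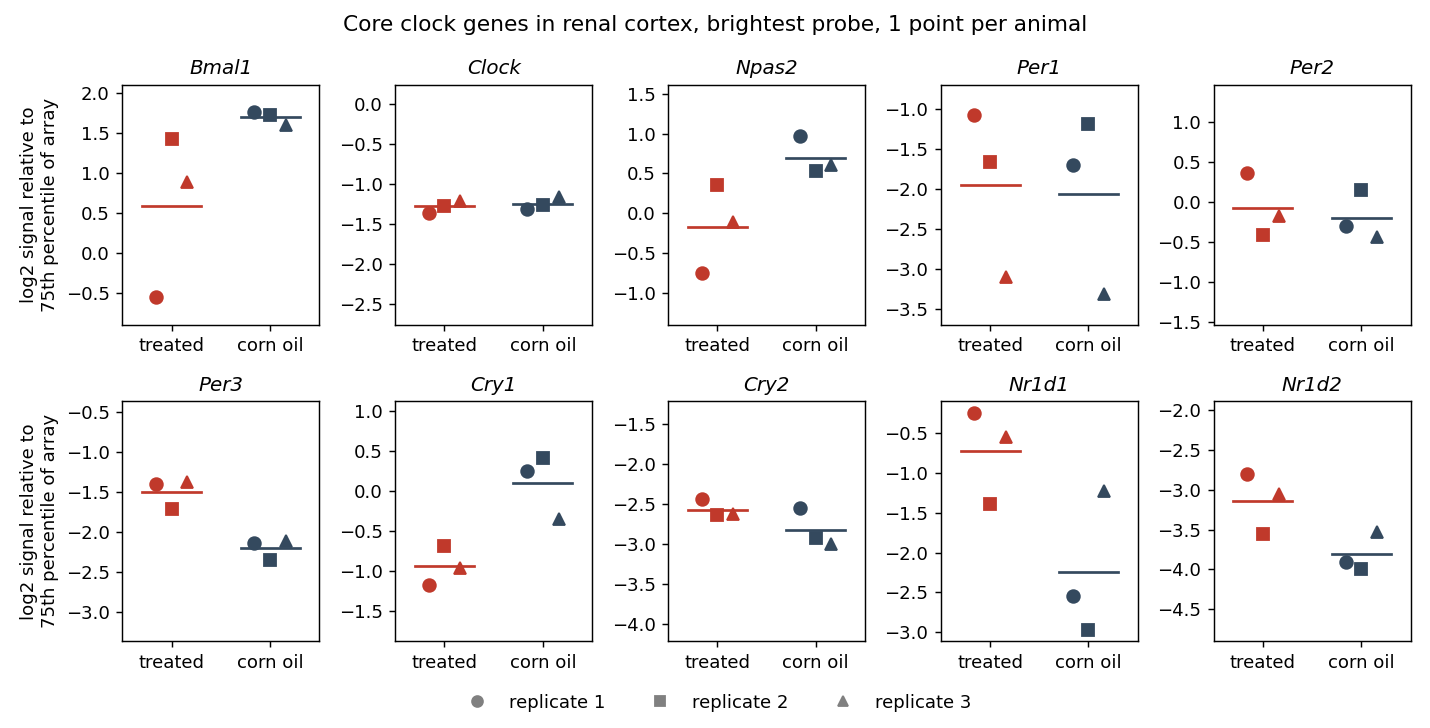
Log2 signal against each array's 75th percentile (vertical axis, 3 log2 units in each panel) for the brightest probe of each core clock gene in treated and corn oil animals; points are single animals with a marker for each replicate number, and bars are group means. In Bmal1, Npas2 and Cry1 every treated animal lies below every corn oil animal, and in Per3 every treated animal lies above.

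Per3 rose in treated cortex and was the only member to pass the test over all genes. PER3 is the least essential of the period proteins, and its transcript is a strong rhythmic output of the clock in peripheral tissue. The brightest Per3 probe read -1.39, -1.70 and -1.38 in treated animals and -2.13, -2.35 and -2.11 in corn oil animals, so the groups lay apart by more than the spread within either. The difference was 1.63-fold (log2 difference 0.70, SE 0.12, 95% confidence interval 0.41 to 1.00, adjusted p = 0.039). In the fit of 1 probe per gene, the call did not hold when any 1 array was left out (adjusted p from 0.073 to 0.112). The difference stayed between 0.63 and 0.81. The call was also lost without a filter on dim probes, with the mean of the probes and with the replicate number as a block. In a fit of every kept probe, this probe and a further Per3 probe passed without treated animal 2. Without any other single array, no Per3 probe passed in that fit. The other 3 kept probes of Per3 had log2 differences of 0.97, 0.78 and 1.01. With all arrays, none of these 3 passed the test of every kept probe, in which 6.72% of probes passed (adjusted p = 0.196, 0.138 and 0.196). Each of these was well above background in all treated animals but in 2 of 3 corn oil animals. A further probe, well above background in 1 treated animal and in no corn oil animal, was not kept.

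Per1 and Per2, the period genes that light and hormones induce quickly, varied more within the groups than between them. Per1 read -1.08, -1.66 and -3.10 in treated animals and -1.70, -1.18 and -3.32 in corn oil animals. Both groups thus held 1 animal with far less Per1 signal, which was animal 3 in each. The interval of the difference ran from -1.70 to 1.94 around 0.12. The second Per1 probe had a difference of 0.30 (SE 0.35, adjusted p = 0.633). Per2 read 0.37, -0.41 and -0.18 in treated animals and -0.30, 0.15 and -0.43 in corn oil animals, a difference of 0.12 with an interval from -0.49 to 0.73. For Per1 and Per2 these data leave either direction possible. Without treated animal 1 the differences were -0.31 for Per1 and -0.10 for Per2, and Per1 was at -0.50 without corn oil animal 3.

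Cry1, the cryptochrome that represses BMAL1 and CLOCK latest in the cycle and is itself held down by REV-ERB proteins, was lower in every treated animal. It read -1.18, -0.69 and -0.96 in treated animals and 0.26, 0.42 and -0.35 in corn oil animals, with no overlap between the groups. The mean was 2.07-fold lower in treated animals (log2 difference -1.05, SE 0.23, 95% confidence interval -1.62 to -0.47) and missed the threshold (adjusted p = 0.064). It passed with a normexp background (adjusted p = 0.044) and with an intensity trend in the variance prior (adjusted p = 0.045), while the adjusted p over the 16 alternatives ran from 0.044 to 0.155. Cry2, its paralogue of weaker rhythm, read -2.44, -2.64 and -2.63 in treated animals against -2.55, -2.92 and -3.00 in corn oil animals. Its brightest probe had a difference of 0.25 (SE 0.14, adjusted p = 0.307) and its other probe one of 0.01 (SE 0.16, adjusted p = 0.981).

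**Figure D2:**
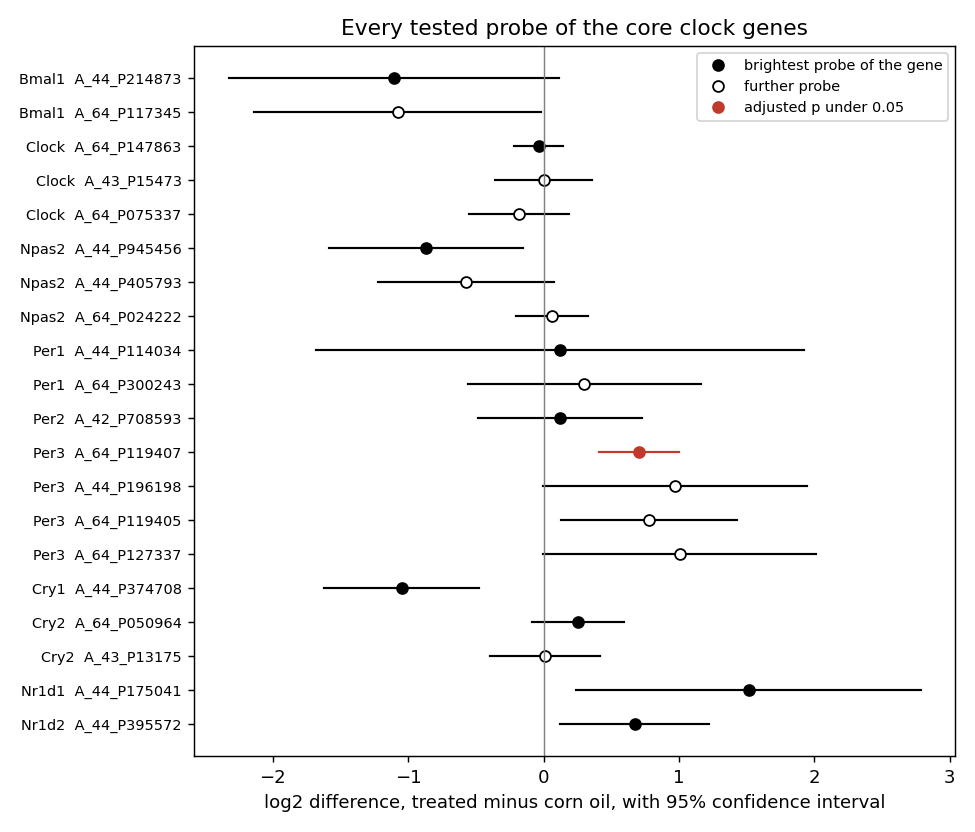
Log2 difference between treated and corn oil animals (horizontal axis, treated minus corn oil) with its 95% confidence interval for the 20 kept probes of the 10 genes, from 1 fit over all kept probes; filled points are the brightest probe of a gene, open points further probes, and red marks an adjusted p under 0.05. The widest interval is that of the brightest Per1 probe and the narrowest that of the brightest Clock probe, and 1 Per3 probe is red.

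Nr1d1 had the widest difference between group means of the members. The nuclear receptor that it encodes, REV-ERB alpha, binds haem and closes the loop on Bmal1. It read -0.25, -1.39 and -0.56 in treated animals and -2.54, -2.97 and -1.24 in corn oil animals. Corn oil animal 3 lay above treated animal 2, so the groups overlapped. The mean was 2.86-fold higher in treated animals (log2 difference 1.51, SE 0.52, 95% confidence interval 0.23 to 2.80), and the test was not passed (adjusted p = 0.149). Leaving out 1 array gave differences from 1.16 to 2.02.

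Nr1d2, the gene of REV-ERB beta, showed the same order within each group as Nr1d1. It read -2.80, -3.56 and -3.05 in treated animals and -3.90, -3.99 and -3.54 in corn oil animals, where the highest corn oil animal just exceeded the lowest treated one. Its difference was 0.67 (SE 0.22, 95% confidence interval 0.12 to 1.23, adjusted p = 0.141), or 0.29 with a normexp background.

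Counted together, 1 of the 10 genes passed the test, Per3, which was higher, and 9 did not, where 4.38% of all genes tested passed in either direction and 3.05% were higher. Over all genes 370 were higher and 161 lower, a split that turned to 463 higher and 512 lower with a normexp background. At an unadjusted p under 0.05, 3 members were higher (Per3, Nr1d1 and Nr1d2) and 2 lower (Npas2 and Cry1), so 5 of 10 against 25% of all genes (11.8% and 13.2% by direction). The groups did not overlap for 4 members, 1 higher and 3 lower, against 32.8% of all genes (14.1% higher and 18.7% lower), a share not far from the background. Size stood further from the background than these counts did. A difference of at least 2-fold separated the means of 3 members (Bmal1, Cry1 and Nr1d1), against 2.06% of all genes, and the median absolute log2 difference was 0.69 over the members and 0.14 over all genes. The spread within groups was also wide. The median range over 3 animals was 0.77 for members in treated animals and 0.45 in corn oil animals, against 0.21 and 0.20 for all genes.

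The activators and repressors were then compared animal by animal, after the corn oil mean of each gene was subtracted. The mean of the 3 activators was -1.27, -0.21 and -0.53 in treated animals and 0.09, -0.05 and -0.04 in corn oil animals. The mean of the 7 repressors was 0.64, 0.17 and 0.20 in treated animals and 0.05, 0.06 and -0.11 in corn oil animals. The means of the arms thus lay on opposite sides of the corn oil mean in each treated animal, activators below and repressors above. Single genes did not all do so. Cry1 lay below its corn oil mean in every treated animal (-1.28, -0.79 and -1.07), Per1 in animal 3 (-1.04) and Per2 in animal 2 (-0.22). Nr1d1 was the highest repressor on this scale in each treated animal (1.99, 0.86 and 1.69). The positive arm minus the negative arm was -1.91, -0.38 and -0.72 in treated animals, against 0.04, -0.10 and 0.07 in corn oil animals. The mean of this difference was -1.004 ± 0.802 in treated animals (SD, n = 3) around a corn oil value of 0 by construction, with an SD of 0.09 in corn oil animals. It was -0.55 without treated animal 1.

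The separation depended on which repressors were counted. Without Nr1d1 and Nr1d2 the difference between arms was -1.56, -0.23 and -0.31 in treated animals and -0.06, -0.31 and 0.37 in corn oil animals, so that the groups overlapped. With activators at -0.53 in treated animal 3, the mean of its remaining repressors then also lay below the corn oil mean. Without Cry1 and Cry2 it was -2.34, -0.57 and -0.98 in treated animals and 0.10, -0.09 and -0.01 in corn oil animals. Cry1 was the 1 repressor gene whose mean was lower in treated animals, as those of Bmal1 and Npas2 were. A score over these members gets no p-value, because the members were chosen with results of these data known.

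**Figure D3:**
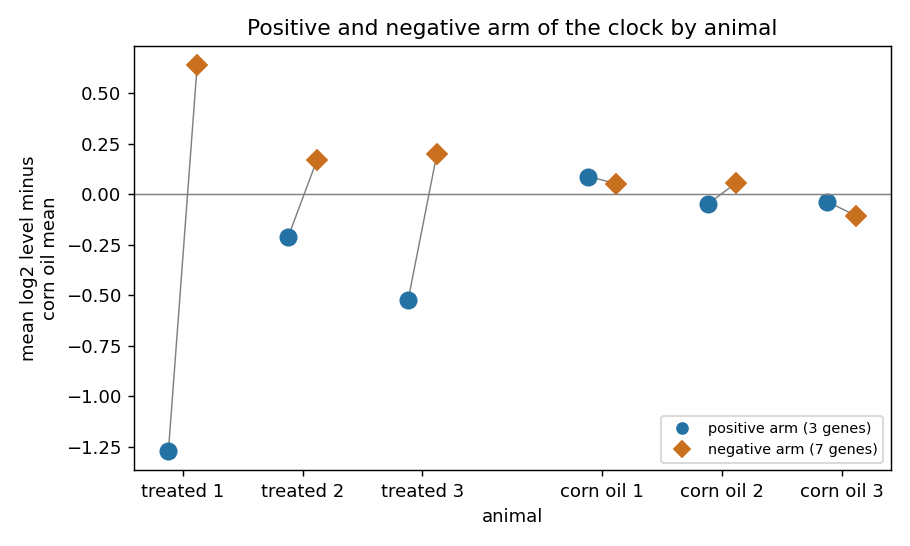
Mean log2 level of the 3 activator genes (circles) and of the 7 repressor genes (diamonds), each gene relative to its corn oil mean (vertical axis), in each animal (horizontal axis). The activator mean lies below the repressor mean in each treated animal, at -1.27 against 0.64 in animal 1, and both means lie close to 0 in the corn oil animals.

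The treated animals differed among themselves in one order. Animal 1 lay farthest from the corn oil mean for 8 of the 10 members and animal 2 nearest for 9 of 10, while over all genes tested animal 1 was farthest for 33.9% and animal 2 nearest for 33.0%. The median absolute distance of a member from its corn oil mean was 1.00 in animal 1, 0.30 in animal 2 and 0.81 in animal 3, whereas the median gene lay 0.17, 0.16 and 0.16 away. The exceptions to animal 1 being farthest were Per1 and Per3, for which it was animal 3. Red blood cell markers had summed signals of 666, 973 and 1023 in treated animals 1 to 3. Their relation to the clock distances was not tested. Among corn oil animals, animal 3 was the farthest from the middle value for 6 members (Bmal1, Clock, Per1, Cry1, Nr1d1 and Nr1d2), where it was so for 32.8% of all genes. Relative to the corn oil mean, that animal was at 1.01 for Nr1d1, -0.46 for Cry1 and -1.25 for Per1.

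Beyond the core, 11 interlocking regulators were listed, of which 5 were tested. None passed the test, 2 being higher and 2 lower at an unadjusted p below 0.05 in limma, against 11.8% and 13.2% of all genes. All 5 nevertheless had groups that did not overlap, 3 higher and 2 lower, where 14.1% and 18.7% of all genes did so. Nfil3, the repressor that competes with DBP at D-boxes, read -2.73, -0.999 and -1.90 in treated animals and -0.19, -0.88 and -0.61 in corn oil animals, a difference of -1.32 (SE 0.45, adjusted p = 0.149). Bhlhe40, an E-box repressor also called DEC1, had a difference of -0.45 (SE 0.12, adjusted p = 0.094). Dbp and Tef encode activators of D-box genes, and Dbp is named here after its values were seen. Dbp read 5.74, 3.58 and 4.43 in treated animals and 3.44, 3.29 and 3.26 in corn oil animals, with animal 1 highest and animal 2 lowest of the treated group, where for Bmal1 animal 1 was lowest and animal 2 highest (difference 1.25, SE 0.53, adjusted p = 0.215). Tef had a difference of 0.65 (SE 0.24, adjusted p = 0.174) and Bmal2, the paralogue of Bmal1 named after its values were seen, one of 0.52 (SE 0.19, adjusted p = 0.170).

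**Figure D4:**
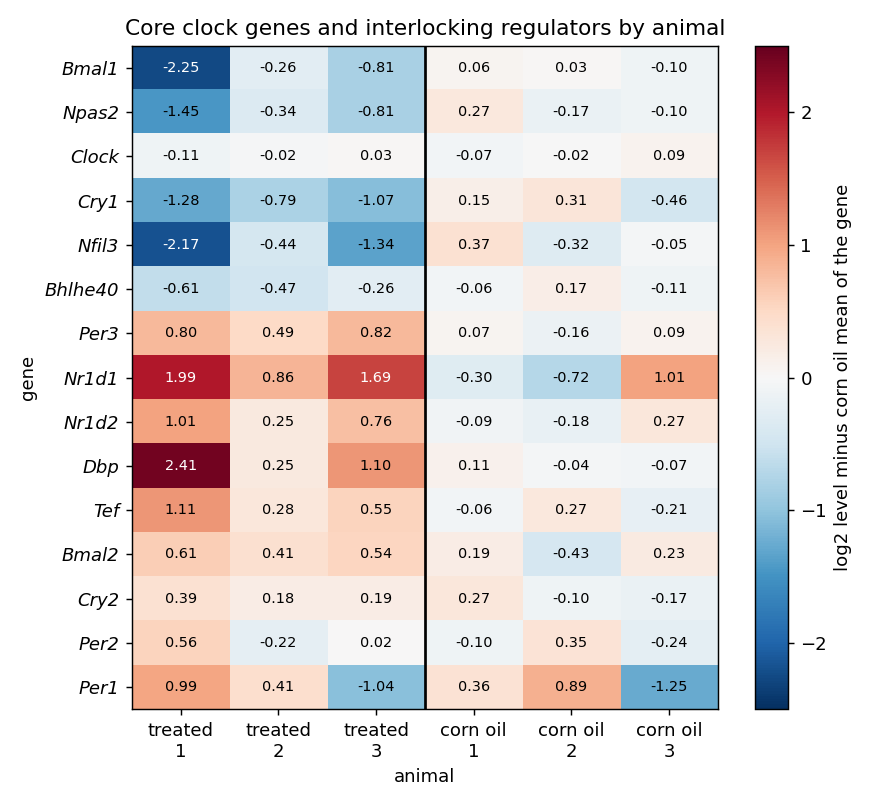
Log2 level of the 10 core clock genes and 5 interlocking regulators in each animal, minus the corn oil mean of the gene (colour and printed value; red is higher, blue lower). In treated animal 1 Bmal1 lies at -2.25, Npas2 at -1.45, Cry1 at -1.28 and Nr1d1 at 1.99, and treated animals 2 and 3 show the same signs for these genes at smaller size.

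The machinery that marks clock proteins for turnover showed small differences. Of 17 listed kinases, ubiquitin ligases and partners 13 were tested and none passed. At an unadjusted p below 0.05 in limma 1 was higher and 1 lower, against 11.8% and 13.2% of all genes. The median difference was 0.07, where that of all genes was -0.03. The groups did not overlap for 3 genes that were higher and 3 that were lower, where 14.1% and 18.7% of all genes did so. Usp7, a deubiquitinase that acts on cryptochromes, had a difference of -0.16 (adjusted p = 0.137), and Prkaa1, an AMP-activated kinase subunit, one of 0.37 (adjusted p = 0.187). Csnk1d and Csnk1e, the casein kinases that phosphorylate PER proteins, were named after their values were seen and had differences of -0.07 and 0.11.

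Output genes were mixed. Of 14 listed genes 13 were tested and none passed. At an unadjusted p below 0.05 in limma 1 was higher (Tef) and 1 lower (Pdk4), against 11.8% and 13.2% of all genes. Pdk4, the pyruvate dehydrogenase kinase that rises with fasting, read -2.05, -2.61 and -4.17 in treated animals and -1.52, -1.60 and -1.56 in corn oil animals, a difference of -1.38 (SE 0.53, adjusted p = 0.182). Here animal 3, not animal 1, lay lowest.

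Signals that reset peripheral clocks were read through glucocorticoid-responsive and immediate early genes. Of 9 glucocorticoid-responsive genes none passed, and 1 was higher and 0 lower at an unadjusted p below 0.05 in limma. Cdkn1a, the cell cycle inhibitor gene, had a difference of 0.35 at its brightest probe (SE 0.09, adjusted p = 0.084) and Fkbp5, a co-chaperone of the glucocorticoid receptor, one of 0.68 (SE 0.37, adjusted p = 0.313). Of 10 immediate early genes none passed, 2 being higher and 2 lower at an unadjusted p below 0.05. Over all genes tested, 11.8% were higher and 13.2% lower at that limma threshold. Fosb, an AP-1 subunit, had a difference of 0.32 (adjusted p = 0.126) and Crem, a cAMP-responsive modulator, one of -0.29 (adjusted p = 0.165).

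Genes with the most similar profile over the 6 arrays were found by the root mean square difference between centred log2 values, a description in which all points share the arrays. Nearest to Bmal1, among all genes tested, was Nfil3 at 0.28, followed by Npas2 at 0.33 and Ankrd65 at 0.33, while Bmal1 itself varied by 0.81 about its mean. Cry1 ranked 25th for Bmal1. Nearest to Per3 were C1h11orf16 at 0.056, Ccnd1, the cyclin D1 gene, at 0.059 and Tfap2d at 0.067, against 0.38 for Per3 about its own mean. Nearest to Nr1d1 were Ncan at 0.35, Sgcz at 0.42 and Kirrel2 at 0.43, against 0.98 for Nr1d1 itself, and Nr1d2 ranked 39th. Ncan, Sgcz and Kirrel2 were dim, at -5.32 or lower in every corn oil animal. In corn oil animal 3 each lay below any signal well above background, so they were kept through the treated group. Their likeness to Nr1d1 therefore owes something to the filter and is not read further.

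**Figure D5:**
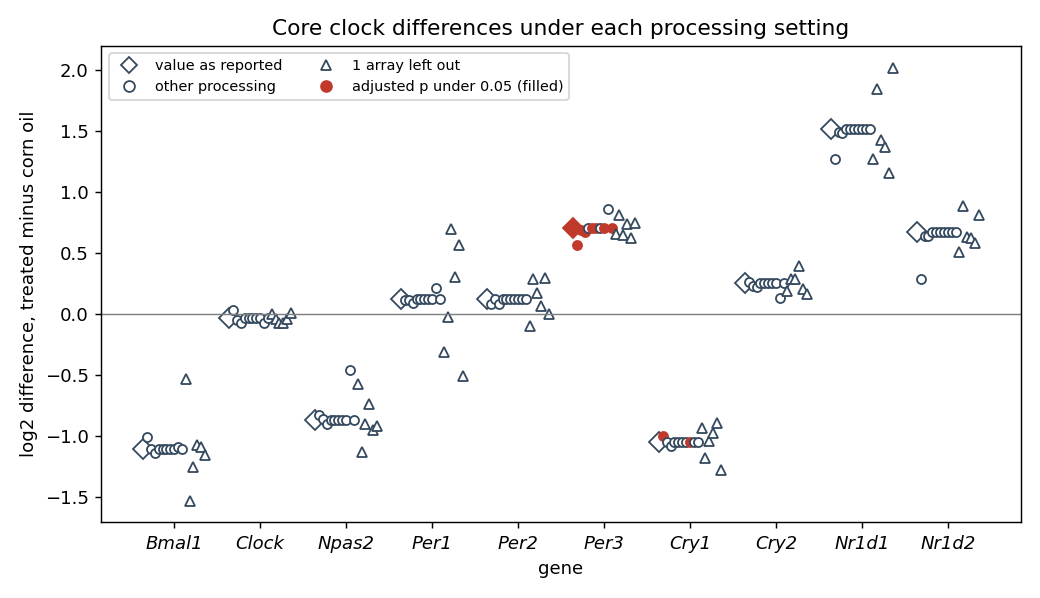
Log2 difference of each core clock gene (vertical axis, treated minus corn oil) as reported (diamonds), under 10 other ways of processing (circles) and with 1 array left out (triangles); filled red marks an adjusted p under 0.05. Bmal1, Npas2 and Cry1 stay below 0 and Per3, Cry2, Nr1d1 and Nr1d2 above 0 throughout, while Clock, Per1 and Per2 lie on both sides.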

How the data were processed

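Agilent's Feature Extraction software produced the deposited spot intensity, in version 10.7.1.1 per the file headers and 10.7 in the submitters' processing notes. It is a Cy3 signal after background subtraction and detrending, without scaling between arrays. Values in the deposited table are a linear ratio of the array's signal to its 75th percentile. Over probes near or above that percentile, the median ratio of table value to scaled signal was within 0.3% of equality on each array. Dimmer probes were not compared in this way. Column medians were 0.110, 0.108 and 0.108 for treated and 0.105, 0.105 and 0.109 for corn oil animals. That comparison settled its scale, centring and direction, and the table served as an alternative.

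The labels gave the groups and replicate numbers and call the animals biological replicates. Each array was scaled to its 75th percentile, and 1 to 3 outlier spots per array were treated as missing. Accessions were matched without versions to RefSeq genes of GRCr8, giving names to 28206 probes (15645 genes). The array design is tied to another build, so only promoters carry coordinates, from GRCr8. A probe was kept if all arrays of 1 or both groups had it well above background, and a gene was represented by its brightest kept probe. The 12130 genes were compared with limma 3.58.1 (R 4.3.3, lmFit and eBayes) with Benjamini-Hochberg adjusted p-values and a threshold of 0.05. A second fit took all 40988 kept probes. The number of arrays limits the precision. Tested on simulated arrays of the same 12130 genes, the fit found 77.8% of genes changed 2-fold and 92.8% of genes changed 4-fold, with 9.6 false among 180.2 calls on average over 5 draws. The simulated noise was drawn for each gene on its own, without a shift of slide or scan, so it does not cover these. The changed genes were picked at random. The members varied more than most genes (median ranges 0.77 and 0.45 against 0.21 and 0.20), so these shares are not those for members.

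The members, the gene lists and the alternatives were chosen with earlier results of these data known. Genes outside the members are named by a rule: up to 4 called genes of a list, or its 2 genes of lowest p if it had no call, and the 3 nearest profiles to Bmal1, Per3 and Nr1d1. Exceptions are said to be so. Alternatives were a normexp background (on median signals, as the files hold no mean spot signal), scaling by quantiles or medians, a stricter filter or none, the value table, a block for replicate number, an intensity trend, the mean of probes, every probe, and each array left out. Slide and scan could not be fitted as blocks, since each held 1 group.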

Additional observations from a re-analysis of the deposited data

How the results depend on the processing

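Of 160 recomputed member differences, 141 kept their direction and side of the threshold, 9 lost the call (all Per3), 2 gained it (Cry1) and 8 changed sign. The sign changes were those of Clock (0.038 with a normexp background, and -0.0696 to 0.0075 over fits without 1 array), Per1 (-0.50 to 0.70 without 1 array) and Per2 (-0.10 to 0.29 without 1 array). The number of genes called, 531 as reported, was 975 with a normexp background, 836 with an intensity trend, 292 with the mean of kept probes, 44 without a filter and 2754 of 40988 when every kept probe was its own feature, and it ran from 0 to 54 without 1 array, where 2437 to 2647 genes had an unadjusted p under 0.05 in limma. Members called, 1 as reported, were 2 with a normexp background or an intensity trend, 0 without a filter or with the mean of probes, and 0 in each fit without 1 array, with 2 to 6 at an unadjusted p under 0.05. Member probes called, 1 as reported, were 2 with a normexp background, an intensity trend or the stricter filter, 0 without a filter, and 0 to 2 without 1 array. The difference between the arms stayed below 0, from -1.32 to -0.55 without 1 array and at -0.70 without Nr1d1 and Nr1d2.

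Over all genes tested, same-numbered animals did not deviate together (correlations of -0.118, -0.114 and 0.089), so the numbers were not taken as pairs. This does not speak for each member. With the replicate block the SE was 0.24 against 0.74 without it for Per1, and 0.06 against 0.12 for Per3. For Npas2 and Per2 the block raised it, to 0.33 from 0.29 and to 0.27 from 0.25. With the replicate block limma called 0 genes, 0 members and 0 member probes (2547 genes at an unadjusted p under 0.05). The cause of these changes was not tested. Some alternatives also bring a smaller number of arrays or a larger number of features. Signal over background limits the further Per3 and Per1 probes, which were well above it in 2 of 3 corn oil animals.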
